A study of Mus musculus with 3 samples.

Results

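The cells described here are 1271 MIM-treated astrocytes that carried transcripts of at least 1 of Olig2, Lhfpl3 and Sox8, genes known from the oligodendrocyte lineage. They are called the rule cells, and 99 of them carried all 3 genes. They were chosen from 14964 kept cells of the MIM-Astrocytes library, of which they were 8.49% (95% exact binomial interval 8.05 to 8.95%), and from 33927 kept cells in the 3 libraries of the series. A rule cell held at least 2 unique molecular identifiers (UMIs, each counting 1 captured transcript) summed over these 3 marker genes. It held 0 UMIs of the astrocyte genes Cldn10 and Slc4a4, at most 1 UMI summed over 8 genes of dividing cells, and at most 1 UMI summed over Hes5 and Egfr, which mark neural progenitors. The marker gate left 2447 cells, the astrocyte gate 1731, the division gate 1332 and the progenitor gate 1271. The measured values of these 15 genes chose the cells, so every difference between the rule cells and other cells of the library is a description and carries no test.

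The series holds 3 droplet single-cell RNA libraries of C57BL/6 mouse cortex cells, each labelled E14.5, with 1 library per condition and no replicate. The NSC library holds neural stem cells grown as neurospheres with EGF and FGF2 at 20 ng/mL each. The Astrocyte library holds astrocytes in a differentiation medium with 10% serum. The MIM-Astrocytes library holds astrocytes whose serum was withdrawn and replaced by FGF2 (20 ng/mL) plus up to 6 metabolites, collected by day 5. These were the amino acids cysteine, glycine, methionine and threonine, the polyamine putrescine and the methyl donor S-adenosylmethionine. The labels do not say which combination or day this library represents, nor whether its astrocytes came from neurospheres or from GLAST-sorted cortex of postnatal day 4. The metabolites and the rest of the medium cannot be told apart, and neither can the condition and the library.

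Olig2 is a basic helix-loop-helix transcription factor required for specification of the oligodendrocyte lineage. In the textbook sequence it acts with its neighbour Olig1 and upstream of Sox10, which with Myrf drives myelin genes such as Mbp. Oligodendrocyte precursors are known by the PDGF receptor Pdgfra and the proteoglycan Cspg4 (NG2), and Sox8 and Lhfpl3 are transcribed in them as well, while Olig2 is also found in other glial progenitors.

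The promoters of the 3 marker genes are shown because these genes chose the cells. Sequences are RefSeq's, on GRCm38.p6, 5′ to 3′ on the gene's strand, and end at the last base before the first annotated start. Capitals mark the E-box CAGCTG, which is its own reverse complement and thus reads the same on both strands. The Olig2 window is chr16:91225300-91225456 on the plus strand, the Lhfpl3 window chr5:22745804-22746053 on the plus strand, and the Sox8 window chr17:25570687-25570936 on the minus strand.
Olig2: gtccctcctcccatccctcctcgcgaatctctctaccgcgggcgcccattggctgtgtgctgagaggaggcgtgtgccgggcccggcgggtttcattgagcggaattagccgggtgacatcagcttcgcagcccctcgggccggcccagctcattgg
Lhfpl3: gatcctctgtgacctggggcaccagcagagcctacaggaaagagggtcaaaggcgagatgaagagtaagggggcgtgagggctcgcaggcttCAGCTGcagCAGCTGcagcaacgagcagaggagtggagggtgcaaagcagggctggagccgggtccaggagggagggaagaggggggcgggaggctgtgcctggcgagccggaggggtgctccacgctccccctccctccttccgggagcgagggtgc
Sox8: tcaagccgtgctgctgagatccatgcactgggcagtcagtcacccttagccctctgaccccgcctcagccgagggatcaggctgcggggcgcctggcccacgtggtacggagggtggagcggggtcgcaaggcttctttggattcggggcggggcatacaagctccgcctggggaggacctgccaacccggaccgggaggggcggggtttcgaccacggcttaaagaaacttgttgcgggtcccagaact
Lhfpl3 held 2 copies of CAGCTG, and the Olig2 and Sox8 windows held 0. Over 32851 mouse promoters, 4271 (13.0%) held the motif in the 250 bases before the start. The Olig2 window is 157 bases long, because annotation places transcribed sequence in the remainder. The Lhfpl3 window overlaps the gene A930003O13Rik and the Sox8 window overlaps 2810468N07Rik. On mm10, Olig2 lies on chr16:91225457-91228677, Lhfpl3 on chr5:22746059-23275597 and Sox8 on chr17:25565892-25570686. A match to these letters describes the sequence and says nothing about binding.

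The gates left a set of cells with few marker transcripts each. Among rule cells, 735 (57.8%) held exactly 2 marker UMIs, 324 held 3, 142 held 4, 50 held 5 and 20 held 6 or more, with a maximum of 8. Just outside the threshold, 1453 cells passed the other gates with 1 marker UMI. Sox8 was seen in 870 rule cells (68.5%), Olig2 in 749 (58.9%) and Lhfpl3 in 578 (45.5%), and 827 (65.1%) carried more than 1 of the 3 genes. The rule cells had a median of 1920 UMIs (quartiles 1509 and 2748.5), against 2983 in the other 9233 non-dividing cells of the library, which are called the other cells. Gates that ask for 0 or 1 UMI favour shallow cells, so the other cells were weighted to the depths of the rule cells, which brought their median to 1945 UMIs. Levels are CPM, the summed UMIs of a gene in every 1000000 UMIs of the set. Intervals are exact at 95% and take in no error beyond counting.

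Each marker gene was high, by the choice of cells, in rule cells of the MIM-Astrocytes and NSC libraries and stood at 9.18 CPM or less in the Astrocyte library. Olig2 stood at 368 CPM in the rule cells, 565 CPM in NSC cells that met the same rule, 76.4 CPM in other non-dividing NSC cells and 3.36 CPM in non-dividing cells of the Astrocyte library. Lhfpl3 stood at 328, 456, 36.9 and 1.90 CPM in the same order. Sox8 stood at 487, 460, 81.1 and 9.18 CPM. It alone of the 3 had no higher level in the NSC rule cells, on totals that include the nuclear RNA Malat1. Without thinning, the rule took 887 of 9145 NSC cells (9.70%) and 31 of 9818 cells of the Astrocyte library (0.316%). After thinning each cell to 1000 UMIs it took 579 of 13991 MIM-Astrocytes cells (4.14%, 3.81 to 4.48%), 441 of 7688 NSC cells (5.74%, 5.23 to 6.28%) and 0 of 9467 Astrocyte cells (0.0390% at most). Thinning left out 973, 1457 and 351 shallower cells. Among cells that passed the division gate on their thinned UMIs, the shares were 5.26% in the MIM-Astrocytes library and 6.06% in the NSC library. That gate passed 11001 MIM-Astrocytes cells at 1000 UMIs, against 10504 without thinning. Cells counted as dividing at full depth were therefore among them. With a marker gate of 3 UMIs the shares were 1.40% in both libraries. In cells thinned to 2000 UMIs they were 5.73% and 13.17%, with 7530 NSC cells left out as too shallow. Without thinning they were 12.1% and 10.4%, so the order and size of the difference depended on gate and depth. Cells meeting the rule were not detectable in the Astrocyte library at 1000 UMIs.

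Genes of the lineage that the gates did not use went against the label of an oligodendrocyte cell. Sox10 had 2 UMIs over all 1271 rule cells (0.698 CPM, 0.0845 to 2.52), against 65 UMIs (42.4 CPM) in the 887 NSC rule cells, a level 60.8-fold higher there (16.2 to 513). At 1000 UMIs per cell, a Sox10 UMI was found in 0.163% of rule cells and 5.96% of NSC rule cells. Pdgfra, the receptor through which precursors respond to PDGF, stood at 6.28 CPM (18 UMIs) against 55.5 CPM, 8.83-fold higher in the NSC rule cells (5.27 to 15.6). Cspg4 stood at 6.63 against 21.5 CPM, Gpr17, a receptor of committed precursors, at 6.98 against 22.2 CPM, and the transcription factor Nkx2-2 at 4.19 against 13.7 CPM. Each of these 3 genes was 3.18- to 3.27-fold higher in the NSC rule cells. The myelin genes Mbp, Mog, Mag and Mobp and their regulator Myrf had 0 UMIs in the rule cells, which allows up to 1.29 CPM each as an exact limit. The cells are therefore named by their rule and not as oligodendrocyte precursors.

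On totals that include Malat1, Olig1 and C1ql1 stood as high in the rule cells as in those of the NSC library, or higher. Malat1 was at 128866 CPM in the rule cells and 297738 CPM in the NSC rule cells. Its larger share lowers the CPM and the thinned detection of all other genes in the NSC cells. Levels were not compared between libraries without Malat1, so the order of Olig1, and that of Sox8 given above, is not settled. Olig1 was at 1206 CPM in the rule cells, 986 CPM in the NSC rule cells and 107 CPM in the Astrocyte library. C1ql1, a secreted C1q family protein of precursors, was at 17.8 against 19.6 CPM, a ratio of 1.10 (0.677 to 1.76) that did not differ beyond counting error. C1ql1 was also at 107 CPM in the Astrocyte library, so it does not separate these cells from those astrocytes. At 1000 UMIs an Olig1 UMI was seen in 67.6% of rule cells, 43.7% of other cells, 51.7% of NSC rule cells and 9.66% of Astrocyte cells. Without thinning these shares were 84.4%, 70.2%, 65.2% and 36.5%. Olig1 was thus not restricted to the rule cells within its library.

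**Figure D1:**
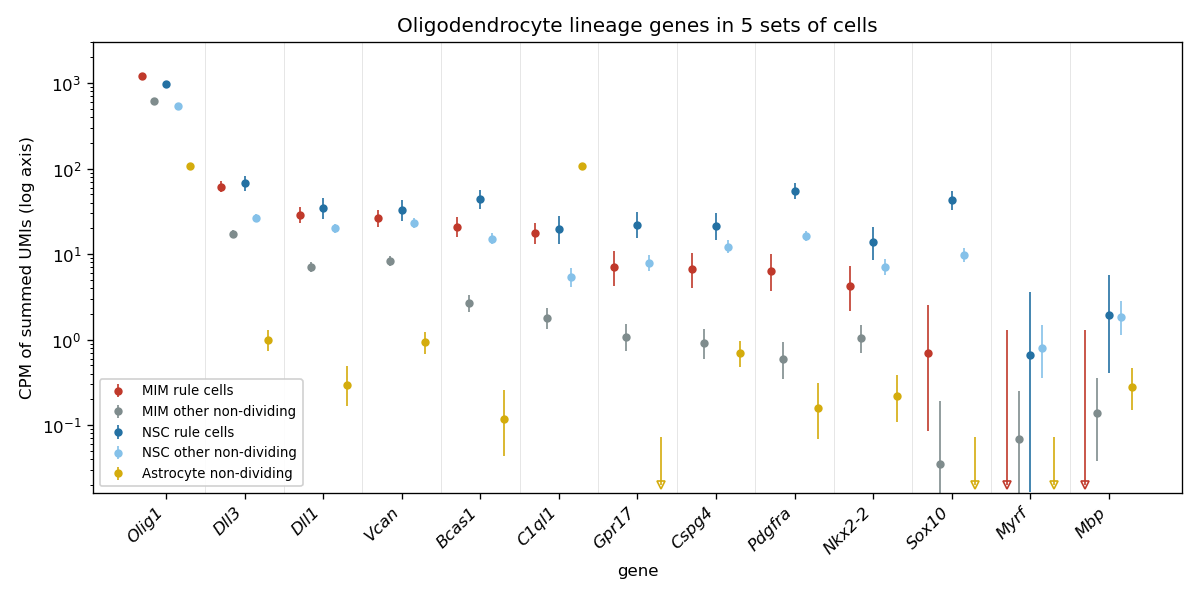
Levels of 13 lineage genes (CPM of summed UMIs, log axis) in rule cells and other non-dividing cells of the MIM-Astrocytes and NSC libraries and in non-dividing cells of the Astrocyte library, at each set's own depth. Bars are exact 95% counting intervals and open triangles are sets with 0 UMIs. Sox10 stood at 0.698 CPM in the MIM rule cells and 42.4 CPM in the NSC rule cells, while Olig1 stood at 1206 and 986 CPM.

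Within the MIM-Astrocytes library, 18 of 36 measured precursor genes, 7 of 12 neuronal commitment genes and the Notch ligands Dll1 and Dll3 were higher in the rule cells than in the other cells at like depth, and 21 of 27 astrocyte genes were lower. These list counts took genes with at least 20 UMIs in both sets together and a difference of at least 1.5-fold. By that measure 7.82% of all 8794 measured genes were higher and 5.2% lower. Outside the lists, genes were called at 1.5-fold with 50 CPM or more in either set. Log2 ratios were taken after adding 1 CPM. Of 2492 genes tested, 76 (3.05%) were higher and 87 (3.49%) lower in the rule cells. The median log2 ratio of these genes was 0.10 with library totals and -0.05 with TMM scaling, which moved the split to 35 higher and 144 lower. It was 116 higher and 89 lower with totals that leave out Malat1, and 110 and 92 without mitochondrial and ribosomal protein genes. Higher genes were 46.6% of all called with library totals, 19.6% with TMM, 56.6% without Malat1 and 54.5% without the other 2 groups. Malat1, a nuclear RNA, made up 12.9% of rule-cell UMIs and 11.2% of those of the like-depth other cells, and mitochondrial genes took 2.17% and 2.37%. With the other cells also weighted by 5 bins of the Malat1 share, 57 genes were higher and 72 lower.

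Of the lineage genes beyond the rule, 9 were higher in the rule cells, C1ql1, Bcas1 and Pdgfra with the largest ratios. Of 30 such genes beyond the rule, 21 were measured with at least 20 UMIs, 9 of them higher and 0 lower, and their median log2 ratio was 0.52 (0.38 with TMM). Over all 8794 genes measured this way, 7.82% were higher, 5.2% lower and the median was 0.12 (-0.01 with TMM). C1ql1 was 3.97-fold higher in the rule cells than in the like-depth other cells (17.8 against 4.49 CPM, 2.53 to 6.30). Bcas1, a gene of newly forming oligodendrocytes, was 3.70-fold higher (20.9 against 5.67 CPM, 2.50 to 5.49). Pdgfra was 4.34-fold higher (6.28 against 1.45 CPM, 1.92 to 10.3) at its low level.

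Of 18 listed transcription factors of the lineage 10 were measured, with 3 higher, 1 lower and a median of 0.52. The higher ones were Myt1, a zinc finger factor (11.9 against 5.02 CPM, log2 ratio 1.10), Sox4 and Sox11, and the lower one was Prrx1 (5.24 against 8.48 CPM, log2 ratio -0.61). Olig1 was 1.43-fold higher (1206 against 841 CPM, 1.38 to 1.49), below the 1.5-fold limit. Sox6, which holds precursors undifferentiated, was just below it, with a log2 ratio of 0.58 (86.6 against 57.4 CPM). Of a wider list of 44 precursor genes, 36 were measured, with 18 higher, 1 lower and a median of 0.61. The lower gene was Kcnj10, a potassium channel gene that astrocytes express as well (35.6 against 70.9 CPM, log2 ratio -0.97). Summed over the list the level was 5610.5 CPM in the rule cells and 5835.5 CPM in the other cells, and its most abundant genes, Serpine2 and Ptprz1, had log2 ratios of -0.20 and -0.02. Cspg5 had a log2 ratio of 0.00, so the list did not move as one.

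The 12 genes named for the largest positive ratios included cytoskeletal genes known from neurons and a Notch ligand. Enc1, an actin-binding protein, was at 80.3 CPM in the rule cells and 34.0 CPM in the other cells, 2.36-fold higher (1.99 to 2.80). Sncaip, which encodes the synuclein partner synphilin-1, was at 63.9 against 28.8 CPM, 2.22-fold higher (1.84 to 2.67). Dll3, a Notch ligand that blocks Notch signalling within its own cell, was at 61.4 against 29.0 CPM, 2.12-fold higher (1.74 to 2.57). Next came the growth cone gene Basp1 (149 against 71.1 CPM), Lrch3 and the axon-growth gene Nav2, with log2 ratios of 1.05, 1.01 and 0.98. The microtubule protein gene Map2 was at 232 against 118 CPM, 1.96-fold higher (1.78 to 2.16). Ncald, Wasf1, B3gat2, the antiproliferative gene Btg2 and Pafah1b3 had log2 ratios of 0.92 to 0.94.

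Genes of the neuronal commitment list that were higher included Map2 and Btg2, while 6 genes of the list were not seen at all. Of 27 genes, 12 were measured, 7 higher and 1 lower, and the median of their log2 ratios was 0.72 (6 higher and 0.59 with TMM). Elavl3, an early neuronal RNA-binding protein, was at 5.93 against 1.28 CPM (17 UMIs, log2 ratio 1.61), and Gadd45g, a growth arrest gene, at 254 against 137 CPM (0.88). The interneuron factor Sp8 was the lower one, at 4.54 against 16.8 CPM (log2 ratio -1.68). Stmn2, Dlx1, Neurod1, Eomes, Tbr1 and Dlx6os1 had 0 UMIs in the rule cells. Summed over the list, the level was 1049.5 CPM in the rule cells and 612 CPM in the like-depth other cells, and whether any neurons took part in the result was not tested. The SoxC factors of the list, Sox4 and Sox11, were higher as well. Both were also counted among the higher transcription factors of the oligodendrocyte lineage, so these counts overlap. Sox4, known from newly committed cells, was at 380 against 230 CPM, 1.65-fold higher (1.53 to 1.77), and its relative Sox11 at 28.3 against 15.6 CPM (log2 ratio 0.82).

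The Delta-like ligands Dll1 and Dll3 were higher in the rule cells, while the receptor gene Notch3, the receptor-modifying gene Lfng and the target Hes1 were lower. Dll1 was at 29.0 against 14.3 CPM, 2.03-fold higher (1.52 to 2.69). Hes1 was at 10.1 against 19.8 CPM, Lfng at 11.5 against 23.9 CPM and Notch3 at 2.79 against 5.79 CPM. Over the 12 measured genes of the pathway, 2 were higher, 3 lower and the median was -0.03. Among all measured genes 7.82% were higher and 5.2% lower. Id4, an inhibitor of basic helix-loop-helix factors, was at 4.89 against 19.9 CPM (log2 ratio -1.83). Fgfr3, an FGF receptor of glial progenitors, was at 4.89 against 13.9 CPM (log2 ratio -1.34).

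Most measured astrocyte genes were lower in the rule cells, a direction that the rule itself bears on. Of 33 listed genes 27 were measured, 0 higher and 21 lower at a median ratio of -1.03 (log2), and cells with a UMI of Cldn10 or Slc4a4 had been gated out of the rule cells. Glul, the glutamine synthetase of astrocytes, was at 46.8 CPM in the rule cells and 156 CPM in the other cells, 3.34-fold lower (2.81 to 4.01). Gja1, which encodes the gap junction protein connexin 43, was at 17.8 against 56.5 CPM, 3.17-fold lower (2.39 to 4.29). Sparcl1, a secreted matrix protein, was at 222 against 585 CPM, 2.63-fold lower (2.43 to 2.85). Aldoc, the brain aldolase, was at 177 against 441 CPM, 2.49-fold lower (2.28 to 2.74). The other 8 genes named on this side, Hopx, S1pr1, F3, Atp1b1, Sdc4, Ifitm3, Clu and Acsbg1, had log2 ratios of -1.70 to -1.19. Astrocyte transcripts were reduced and not gone: the abundant genes Cst3 and Apoe, picked after their values were seen, still stood at 9529 and 8459 CPM against 20513 and 18053 CPM.

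The gate against Cldn10 and Slc4a4 bears on these ratios, so the rule cells were also set against 2961 cells that passed the same gates with 0 marker UMIs. Of 2495 genes, 108 (4.33%) were higher and 86 (3.45%) lower at like depth. The 27 astrocyte genes had a median of -0.85 there, 20 of them lower and 0 higher. The lineage genes gave 9 higher and 0 lower of 21 again, with a median of 0.52, where 10.8% of all measured genes were higher and 5.47% lower. Against the 1367 cells with 2 or more UMIs of Cldn10 and Slc4a4, 706 of 2586 genes (27.3%) were higher and 290 (11.2%) lower. Against the 183 cells with 2 or more UMIs of Hes5 and Egfr, 384 of 2676 genes (14.3%) were higher and 334 (12.5%) lower. Weighting left the precision of 175.19 and 60.91 equally weighted compared cells in these last comparisons, the second of which dropped 40 rule cells with no compared cell at their depth, so these ratios are less precise than those above.

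Several levels changed with each added marker UMI, below the threshold of 2 as well as above it. In cells that passed the other gates and were weighted to one depth, Dll3 was at 25.9 CPM with 0 marker UMIs, 44.6 with 1, 55.4 with 2, 66.4 with 3 and 70.1 with 4 or more. Map2 went from 103 through 169, 217 and 254 to 279 CPM. Glul went the other way, from 140 through 79.1, 58.7 and 29.9 to 15.2 CPM, and Cst3 from 19789 to 6916 CPM. Olig1 went from 871 to 1318 CPM at 3 UMIs and was at 1232 CPM at 4 or more. The Malat1 share went from 10.2% to 15.1% along the same steps, and its part in the result was not tested. Cells with 1 marker UMI therefore stood between the rule cells and the cells with none.

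**Figure D2:**
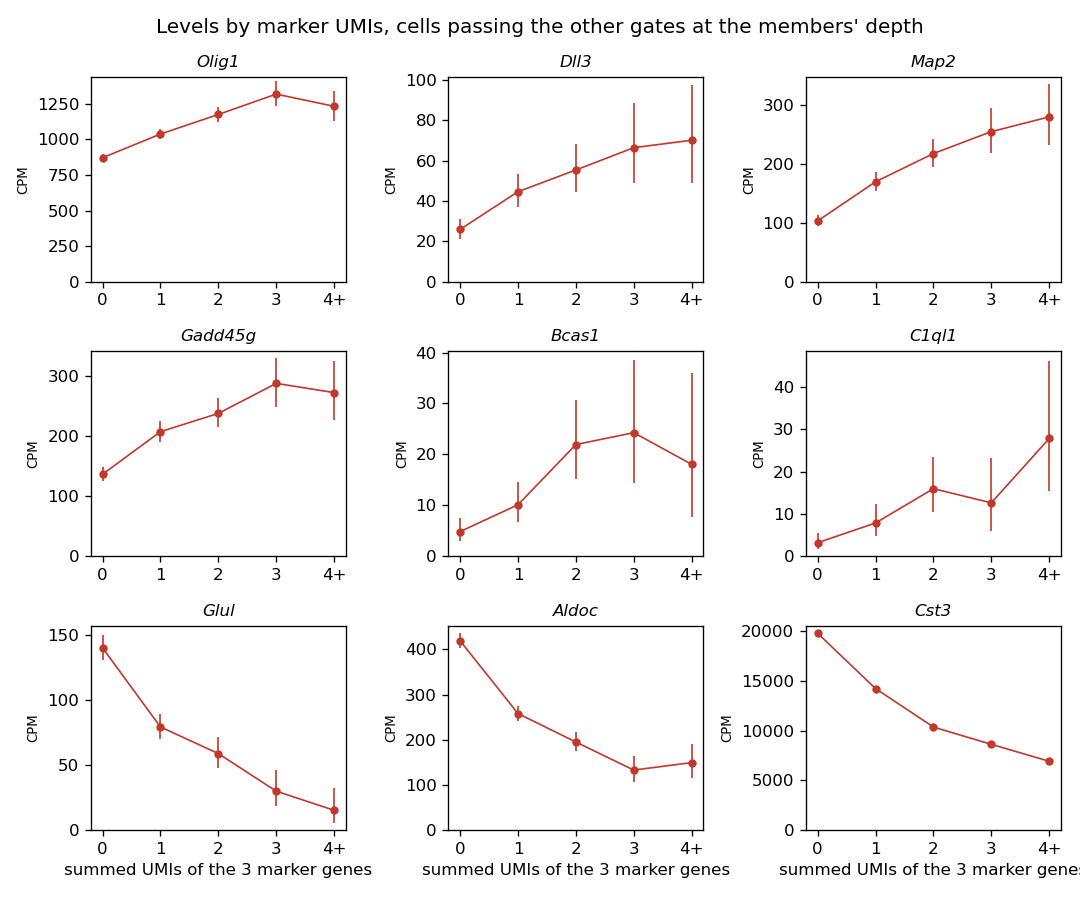
Levels of 9 genes (CPM, linear axes from 0) by the summed marker UMIs of a cell, over cells passing the other gates and weighted to the depths of the rule cells (2961, 1453, 735, 324 and 212 cells from left to right). Bars are exact 95% counting intervals. Dll3 went from 25.9 to 70.1 CPM and Glul from 140 to 15.2 CPM.

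The 3 marker genes did not sort the rule cells alike. Rule cells with Lhfpl3 held more Dll3 and less Cst3, in a split chosen after the values were seen. At the depths of all rule cells, Dll3 was at 95.9 CPM in the 110 cells with Lhfpl3 alone, 83.2 CPM in the 173 with Olig2 and Lhfpl3, 71.7 CPM in the 196 with Lhfpl3 and Sox8, and 89.1 CPM in the 99 with all 3. Without Lhfpl3 it was at 40.9 CPM in the 118 cells with Olig2 alone, 43.0 CPM in the 216 with Sox8 alone and 47.7 CPM in the 359 with Olig2 and Sox8. The 4 combinations with Lhfpl3 thus lay above the 3 without it. Cst3 lay between 5043 and 7250 CPM with Lhfpl3 and between 10359 and 10911 CPM without it. C1ql1 rested on 17 UMIs or fewer per combination, and its levels overlapped between combinations with and without Lhfpl3. It was at 51.4, 32.1, 41.9 and 13.1 CPM in the 4 with Lhfpl3, in the order above. In the 3 without, it was at 19.8, 0 and 7.11 CPM. Pooled over combinations, C1ql1 was higher with Lhfpl3, as given below. Olig1 lay between 1139 and 1386 CPM in all 7 combinations.

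**Figure D3:**
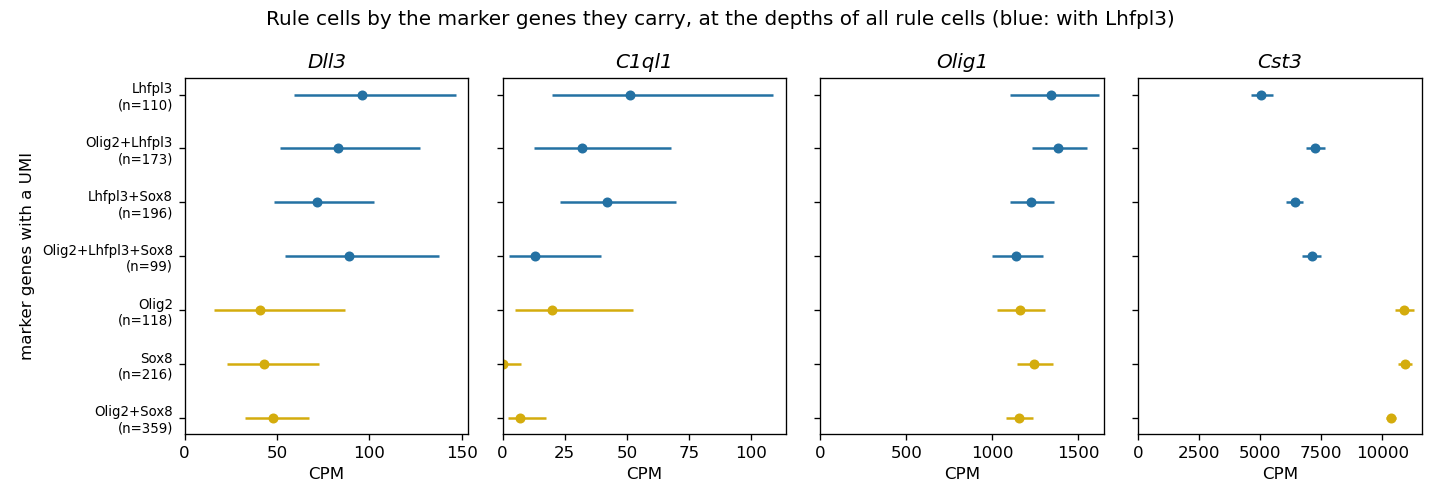
Levels of 4 genes (CPM, linear axes from 0) in rule cells grouped by which marker genes had a UMI, at the depths of all rule cells, with exact 95% counting intervals. Blue points are combinations with Lhfpl3 and yellow points those without. Dll3 was at 71.7 to 95.9 CPM with Lhfpl3 and 40.9 to 47.7 CPM without it.

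At like depth, 574 of the 578 rule cells with a Lhfpl3 UMI were compared with 693 without. Of 2635 genes, 76 (2.88%) were higher and 80 (3.04%) lower. The higher ones included a potassium channel partner, a glutamate receptor subunit and a cyclin. The potassium channel partner Dpp6 was at 82.0 against 27.2 CPM, the protocadherin Pcdh11x at 111 against 43.3 CPM, and the AMPA receptor subunit Gria2 at 106 against 49.7 CPM (2.13-fold, 1.52 to 3.03). Ccnd1, the G1 cyclin, was at 71.0 against 31.4 CPM (2.26-fold, 1.51 to 3.44), although the cells had been gated against division genes. Map2 was at 322 against 276 CPM (1.16-fold, 0.978 to 1.39) and Olig1 at 1326 against 1271 CPM (1.04-fold, 0.964 to 1.13), both with intervals that include 1. On the lower side, Pla2g7 was at 252 against 570 CPM, Notch2 at 60.8 against 117 CPM and the glutamate transporter Slc1a3 at 95.8 against 177 CPM. Of 28 measured precursor genes 9 were higher and 0 lower (median 0.30), where 9.48% and 8.29% of all measured genes were. Malat1 was at 152361 against 120505 CPM, and its part in the result was not tested.

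In the NSC library the same split separated Pdgfra and Sox10. There, 422 rule cells with Lhfpl3 were compared with 460 without, and 101 of 2565 genes (3.94%) were higher and 252 (9.82%) lower. Pdgfra was at 96.1 against 18.1 CPM (5.32-fold, 2.97 to 10.2) and Sox10 at 71.4 against 16.1 CPM (4.44-fold, 2.32 to 9.26). C1ql1 was at 37.1 against 4.02 CPM in the NSC library and 38.7 against 12.3 CPM in the MIM-Astrocytes library (3.14-fold, 1.40 to 8.29). Among 2143 genes tested in both splits, 58 were higher with Lhfpl3 in the MIM-Astrocytes library and 61 in the NSC library. Of these, 17 were higher in both, 29.3% and 27.9% of the lists, Gria2, Ccnd1, Pcdh11x and Cacng4 among them. On the lower side the lists held 50 and 188 of the 2143 genes, and 33 were lower in both, 66% and 17.6% of the lists.

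The comparison of rule cells with other cells was repeated inside the NSC library, whose cells were not used to choose the MIM rule cells but were gated on the same genes. Of 2540 genes, 111 (4.37%) were higher and 196 (7.72%) lower in the NSC rule cells at like depth. Among 2070 genes tested in both libraries, 28 were higher in both, which is 40.6% of the MIM-Astrocytes list of 69 and 44.4% of the NSC list of 63. Of 24 measured lineage genes 14 were higher and 1 lower in the NSC rule cells (median 0.80), where 7.97% and 8.98% of all measured genes were (median 0.04). Dll3 was at 67.9 against 25.8 CPM in the NSC library, B3gat2 at 64.6 against 25.4 CPM and Btg2 at 104 against 52.4 CPM. Enc1, Sncaip and Basp1, among the largest ratios in the MIM-Astrocytes library, had log2 ratios of 0.48, 0.49 and 0.50 in the NSC library, below the limit. On the lower side 53 genes were shared, 88.3% of the MIM-Astrocytes list of 60 and 36.6% of the NSC list of 145. Gja1 was at 9.14 against 90.8 CPM (log2 ratio -3.18) and Sparcl1 at 84.9 against 476 CPM (-2.47) in the NSC library. Across the 2070 genes the ratios correlated at r = 0.776 (Spearman 0.684), a description over genes, which are not independent replicates.

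**Figure D4:**
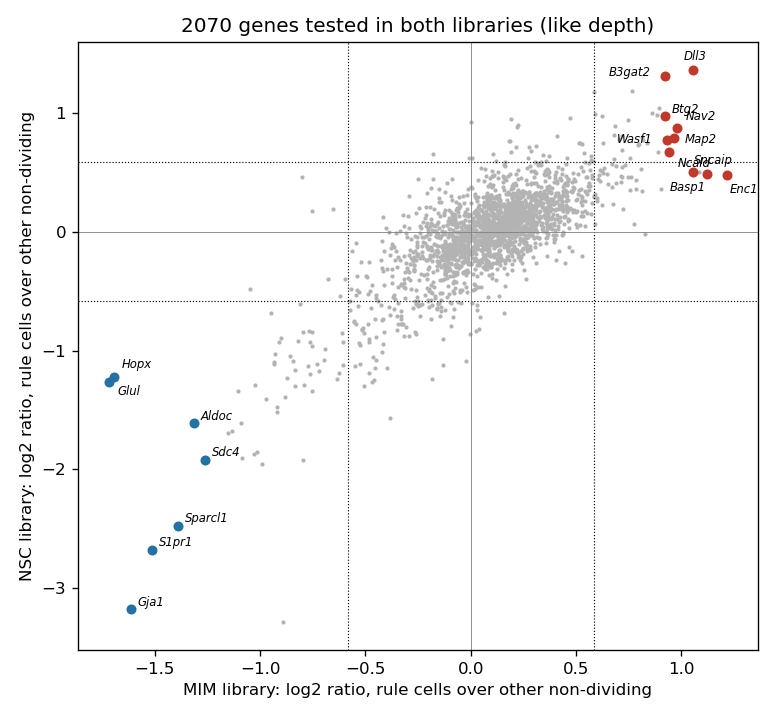
Log2 ratios of rule cells over other non-dividing cells at like depth, MIM-Astrocytes library on the x axis and NSC library on the y axis, for 2070 genes tested in both. Dotted lines mark 1.5-fold, red and blue points the named genes higher and lower in the MIM-Astrocytes library. Dll3 lay past the line in both (1.06 and 1.36), Enc1 in the MIM-Astrocytes library alone (1.22 and 0.48).

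When the cells of the library were clustered without the 15 rule genes, the rule cells fell mainly into clusters 5 and 2. Cluster 5, with 1470 cells at a median of 1552.5 UMIs and led by Gm813, Ppp1r16b and Nav2, held 641 rule cells (50.4%, 47.6 to 53.2%) and 20.1% of the like-depth other cells. Cluster 2, with 3585 cells and Sox4, Smoc1, Lrrn1 and Olig1 among its leading genes, held 520 (40.9%) and 37.3%. Cluster 1, led by the astrocyte genes Aldoc and Sparcl1, held 62 (4.88%) and 29.4%. No cluster was made of rule cells alone: they were 44.4% of the non-dividing cells of cluster 5. At 1000 UMIs, a Lhfpl3 UMI was seen in 31.5% of non-dividing cells of cluster 5, 3.00% in cluster 2 and 0.326% in cluster 1. Olig2 was seen in 23.1%, 11.3% and 3.38%, and Sox8 in 28.5%, 16.7% and 4.34%. Lhfpl3 was thus more tied to cluster 5 than the other 2 markers.

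**Figure D5:**
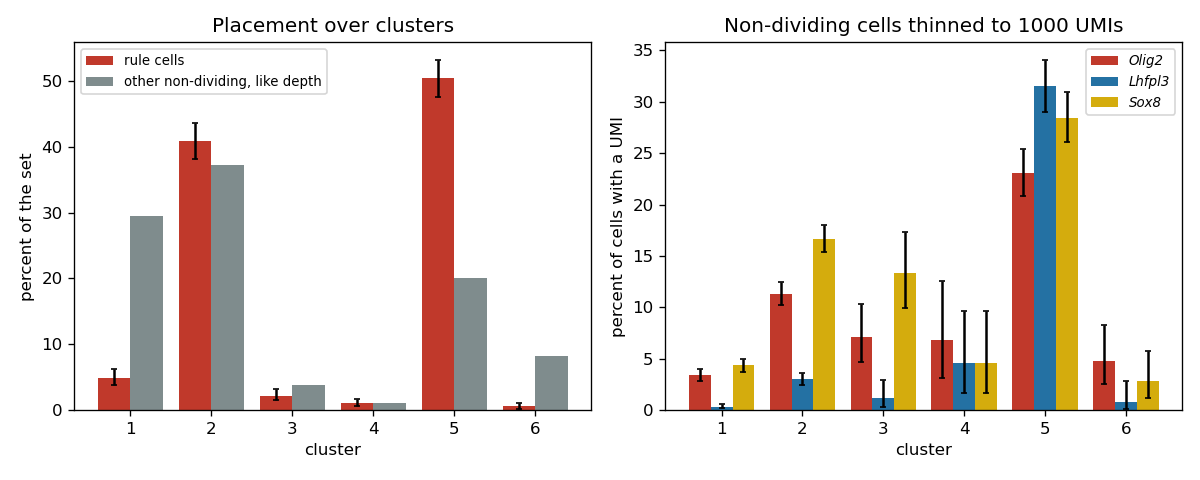
Left, percent of rule cells (red, exact 95% intervals) and of like-depth other non-dividing cells (grey) in each of 6 clusters made without the rule genes. Right, percent of non-dividing cells, thinned to 1000 UMIs, with a UMI of each marker gene. Cluster 5 held 50.4% of the rule cells and had Lhfpl3 in 31.5% of its cells.

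Rule cells of clusters 5 and 2 differed in Dll3, C1ql1, Map2 and Cst3 and stood within 1.5-fold of each other in Olig1. Their medians were 1583 and 2510.5 UMIs, and these levels were not weighted for depth. Dll3 was at 121 CPM in the rule cells of cluster 5 and 28.7 CPM in those of cluster 2, and Map2 at 415 and 139 CPM. C1ql1 was at 45.4 CPM in cluster 5 and had 0 UMIs in cluster 2, which allows up to 2.65 CPM as an exact limit. Cst3 ran the other way, at 3526 and 10753 CPM. Olig1 was at 1364 and 1241 CPM. Both Sox10 UMIs lay in cluster 5. Lhfpl3 itself was at 713 CPM in the rule cells of cluster 5 and 92.5 CPM in those of cluster 2. The split of rule cells by Lhfpl3 and their split by cluster therefore overlap and are not separate results.

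Rule cells were also set against cells of their own cluster with 0 marker UMIs. Those of cluster 2 gave few called genes, and those of cluster 5 gave more, from fewer compared cells. In cluster 2, 520 rule cells against 962 such cells gave 18 of 2449 genes higher (0.735%) and 5 lower (0.204%). Btg2 was at 55.2 against 30.8 CPM there, Nav2 at 120 against 70.9 CPM and Gadd45g at 224 against 136 CPM. In cluster 5, 634 against 323 cells gave 121 of 2710 genes higher (4.46%) and 90 lower (3.32%), with Gria2 at 95.1 against 34.1 CPM. Weighting left the precision of 269.69 equally weighted compared cells in cluster 5, 851.96 in cluster 2 and 4902.7 for the whole set. With fewer UMIs, counting error alone passes the 1.5-fold limit more often, so these shares cannot be set against each other. Dll3 was at 122 against 104 CPM in cluster 5 (1.17-fold, 0.838 to 1.65) and at 28.7 against 18.9 CPM in cluster 2 (1.52-fold, 0.947 to 2.43). Both intervals include 1, so the Dll3 difference of the whole set was not resolved inside either cluster. Glul was at 14.3 against 7.07 CPM in cluster 5 and 43.0 against 52.2 CPM in cluster 2, again with intervals that include 1. The measured lineage genes beyond the rule had a median log2 ratio of 0.05 in each cluster. In cluster 5, 3 of 19 were higher and 2 lower, beside 824 and 628 of all 6350 measured genes. In cluster 2, 1 of 14 was higher and 0 lower, beside 434 and 256 of 6780.

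In the MIM-Astrocytes and NSC libraries, a cell with a UMI of one marker gene held a UMI of another more often than cells without it, at 1000 UMIs per cell. Among non-dividing cells of the MIM-Astrocytes library, Lhfpl3 was seen in 13.3% of cells with an Olig2 UMI (11.1 to 15.7%) and 4.91% of cells without one. In cells with a Lhfpl3 UMI, Sox8 was seen in 26.3% against 11.3% of the remainder, and Olig1 in 70.0% against 45.3%. In the NSC library, cells with Lhfpl3 held an Olig2 UMI in 17.7% against 10.7%. Some NSC differences were small: Lhfpl3 was seen in 9.36% of cells with a Sox8 UMI (7.47 to 11.5%) and 6.96% without one (6.34 to 7.61%), with overlapping intervals. In the Astrocyte library 32 cells held Olig2, 17 Lhfpl3 and 86 Sox8, and 0% of each held another marker gene.

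Lists of other cell types summed to low levels in the rule cells, the Schwann cell list excepted. Of 15 microglial genes 13 had 0 UMIs (summed level 23.4 CPM against 29.6 in the like-depth other cells), as had 8 of 12 each of endothelial, mural and fibroblast genes and 6 of 6 erythroid genes. Of 12 ependymal and choroid plexus genes 7 had 0 UMIs, and the list summed to 21.3 CPM against 30.7 CPM. Of 12 Schwann cell genes 6 had 0 UMIs, and the list summed to 122.5 CPM against 137.5 CPM. The part of such cells in the results was not tested. The astrocyte list summed to 10550 CPM against 22301 CPM. Doublets could not be called, since Scrublet marked 0 of 14964 cells. The 8% of cells with the highest doublet score made up 3.30% of the rule cells and 6.62% of the other cells, and without them 78 genes were higher and 93 lower. The MIM-Astrocytes library shared 32 cell barcodes with the NSC library and 43 with the Astrocyte library, 2 of them in each case barcodes of rule cells.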

How the data were processed

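Per the labels' protocols, the authors counted UMIs of methanol-fixed cells in Cell Ranger 3.0.2 against mm10, as supplied by 10x, and the deposited matrices hold whole counts per gene and barcode. The submitters' processing notes also name Seurat 3.1.1 without a role. Library totals were 50915129 UMIs over 14977 barcodes (MIM-Astrocytes), 14696853 over 9157 (NSC) and 50598967 over 9825 (Astrocyte).

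Barcodes with at least 200 genes and at most 20% mitochondrial UMIs were kept (14964, 9145 and 9818), with medians of 3156, 1379 and 5089 UMIs. UMIs were summed over cells and scaled by the total of the set (CPM). Compared cells were weighted within bins of total UMIs 0.2 log2 units wide to the depths of the rule cells. With 1 library per condition no test was run, and genes were called by size. Ratios carry exact 95% counting intervals, which treat UMIs as independent. Simulated data (50 genes per fold) were made for the comparison of rule cells with other cells alone. There the calls recovered 100% of genes raised 2-fold and 96% of those raised 1.75-fold, with 0 of 2126 unchanged genes called. UMIs were drawn from a shared profile per depth group, without further variation between cells. The comparisons with fewer compared cells were not simulated, so their rate of false calls is not known.

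Named genes were the 12 largest log2 ratios in each direction among called genes, without the rule genes, mitochondrial, ribosomal, haemoglobin and sex-linked genes and clone-like names. List genes could also be named, and in all other comparisons genes were picked after their values were seen. The rule cells and the gene lists were chosen with earlier results of these data known. Clusters (Leiden, resolution 0.5, 2000 variable genes, 30 components, 15 neighbours) left out the 15 rule genes. Doublets were kept.

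The work was done in scanpy 1.11.5 with anndata 0.12.19, igraph 0.11.9, scikit-learn 1.9.0, matplotlib 3.10.9, pandas 2.3.3, scipy 1.17.1 and numpy 2.4.6, under Python 3.11.15. Coordinates came from GENCODE vM21, with 50 of 50 genes matched by ID. Alternatives varied the fold, level, pseudocount, scaling, depth matching, gates, thinning and clustering. Values of some genes of the lists are not reported here, though the counts over the lists include them.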

Additional observations from a re-analysis of the deposited data

How the results depend on the processing

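No paired analysis was possible because each condition is 1 library and the labels carry no replicate numbers. The 24 named genes kept their direction and stayed past 1.5-fold in 384 of 384 combinations of gene and setting, with a smallest log2 ratio of 0.75 in size. They had been chosen for the largest ratios in these cells, and the 2-fold and 20 CPM settings leave a ratio unchanged. The comparisons inside clusters were not among the settings. There, Hopx, Atp1b1, Glul and Btg2 changed sign in cluster 5 (log2 ratios of 1.90, 1.05, 0.92 and -0.07). Pafah1b3 changed sign in cluster 2 (-0.28), and the other named genes kept theirs in both. Counts of genes depended on the settings, and the cause was not tested where the setting does not itself fix it. Genes higher (76) numbered 7 at 2-fold, 241 at 20 CPM, 116 without Malat1 in the totals, 35 with TMM, 194 in cells thinned to 2000 UMIs, 308 with no matching on depth and 128 with a marker gate of 3 UMIs. Genes lower (87) numbered 27 at 2-fold, 170 at 20 CPM, 144 with TMM and 154 with no matching. Lineage genes higher (9) numbered 5 with a pseudocount of 10 CPM and 17 with no matching. A marker gate of 3 UMIs left 536 rule cells. The share of cells meeting the rule at 1000 UMIs was 1.10% (MIM-Astrocytes) and 1.33% (NSC) with that gate, and 3.60% (MIM-Astrocytes) with 0 division UMIs allowed. Without thinning it was 8.49%, 9.70% and 0.316% (Astrocyte), and at 2000 UMIs it was 3.95% (MIM-Astrocytes), 10.65% (NSC) and 0.109% (Astrocyte). Genes higher in both libraries (28) numbered 1 at 2-fold, 52 with a marker gate of 3 UMIs and 81 at 20 CPM. The largest cluster share (50.4%, against 20.1% of other cells) was 86.8% (53.1%) at resolution 0.25, 54.7% (22.8%) at resolution 1 and 70.4% (34.1%) with the rule genes kept. Weighting by the Malat1 share, and leaving out the shallow cluster 6 (57 higher, 78 lower), were added after the data were seen. The low level of most lineage genes, often under 30 UMIs, limits their ratios.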

Other observations

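Further lists were set against the other non-dividing cells of the library at like depth, where 7.82% of all measured genes were higher in the rule cells, 5.2% were lower and the median log2 ratio was 0.12. The 34 chromatin methylation genes had a median of 0.36, 7 of them higher and 0 lower. With TMM scaling 2 of the 34 were higher, beside 394 of all 8794 measured genes, so that count was near the background, and the median was 0.23 beside -0.01. Ezh2, the histone H3 lysine methyltransferase of Polycomb, was at 61.8 against 34.8 CPM, and the demethylase gene Kdm6b at 81.7 against 49.3 CPM. Setd2 was at 18.5 against 10.1 CPM. Genes of one-carbon metabolism, which the metabolites of the medium feed, gave 0 higher and 4 lower of 28, with a median of -0.12. Cholesterol synthesis genes gave 1 higher and 0 lower of 23, with a median of 0.04, a count of the order of the background.

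Genes that handle glutamate and GABA gave 0 higher and 6 lower of 16, beside the 5.2% lower among all measured genes. The GABA transporter gene Slc6a11 was at 5.93 against 23.6 CPM (log2 ratio -1.83). Interferon-response genes gave 0 higher and 3 lower of 7. Tubulin and stathmin genes gave 4 higher and 1 lower of 13, and Stmn3 was at 147 against 78.7 CPM.

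The gene model Gm813, left out of the named genes by its clone-like name and picked after its value was seen, was at 189.5 CPM in the rule cells and 76.0 CPM in the other cells. It had 1 UMI in the NSC rule cells (0.653 CPM) and 0 UMIs in the Astrocyte library. At 1000 UMIs it was seen in 11.1% of rule cells and 2.36% of other cells.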
